A study of Mus musculus with 10 samples.

Results

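Adenosine receptors and adenosine handling were described by 10 genes, chosen by name and all found among the 47632 gene rows of the table: the receptor genes Adora1, Adora2a and Adora2b, the ectonucleotidase genes Entpd1, Entpd2 and Nt5e, the nucleoside transporter genes Slc29a1 and Slc29a2, and the enzyme genes Adk and Ada. RNA was sequenced from the striatum at 11 weeks of age, from 5 R6/2 hemizygous mouse samples and 5 samples of their isogenic wild-type control. R6/2 is a transgenic model of Huntington's disease in which a short piece of human huntingtin with a long CAG repeat is expressed from the human promoter, so the endogenous Htt gene, at 16.5 ± 1.30 FPKM in R6/2 and 16.2 ± 0.697 FPKM in control (SD, n = 5 each), does not check the genotype. Sex, repeat length and whether each library came from its own animal are not stated in the labels, so p-values cover no more than the variation among these samples, part of which may be technical. Values are FPKM, which scale fragments to transcript length and to library size, as the authors deposited them.

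Adenosine is a breakdown product of ATP that damps neuronal activity. Outside the cell, ectonucleotidases shorten ATP towards AMP (NTPDases) and cut AMP to adenosine (CD73). Equilibrative transporters move adenosine across the membrane. Inside the cell adenosine kinase returns adenosine to AMP while adenosine deaminase turns it into inosine. The A1 receptor couples to inhibitory G proteins and is widespread in the brain. The A2A receptor couples to the stimulatory G protein Golf and adenylyl cyclase, and in the striatum it is concentrated in the indirect-pathway spiny projection neurons, which also carry the D2 dopamine receptor. The A2B receptor has a low affinity for adenosine.

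The A2A and A1 receptor genes were lower in R6/2 striatum, and none of the enzyme and transporter genes passed the test. Adora2a averaged 3.05 ± 0.847 FPKM in R6/2 and 25.4 ± 4.55 FPKM in control (SD, n = 5 each), and Adora1 averaged 15.2 ± 2.37 FPKM in R6/2 and 22 ± 1.32 FPKM in control. Of the 10 genes, 8 averaged 1 FPKM or more across the 10 libraries and entered the limma fit over 15905 genes; Adora2b and Slc29a2 did not. Both genes called at a Benjamini-Hochberg adjusted p under 0.05 were lower and 0 were higher. Over all tested genes 14.1% were called, 9.11% lower and 5.00% higher, against which 2 of 8 is to be read. The same pair, Adora2a and Adora1, was lower without overlap between the 5 and 5 libraries, as were 8.58% of all tested genes. At an unadjusted p under 0.05, limma had 4 of the 8 lower (Adora1, Adora2a, Nt5e and Entpd2) and 0 higher, beside 15.5% lower and 12% higher over all tested genes. The median log2 change of the 8 was -0.53, beside 0.00 over all tested genes. All log2 changes are R6/2 minus control of log2(FPKM + 1), a scale on which the changes of low genes come out too small.

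**Figure D1:**
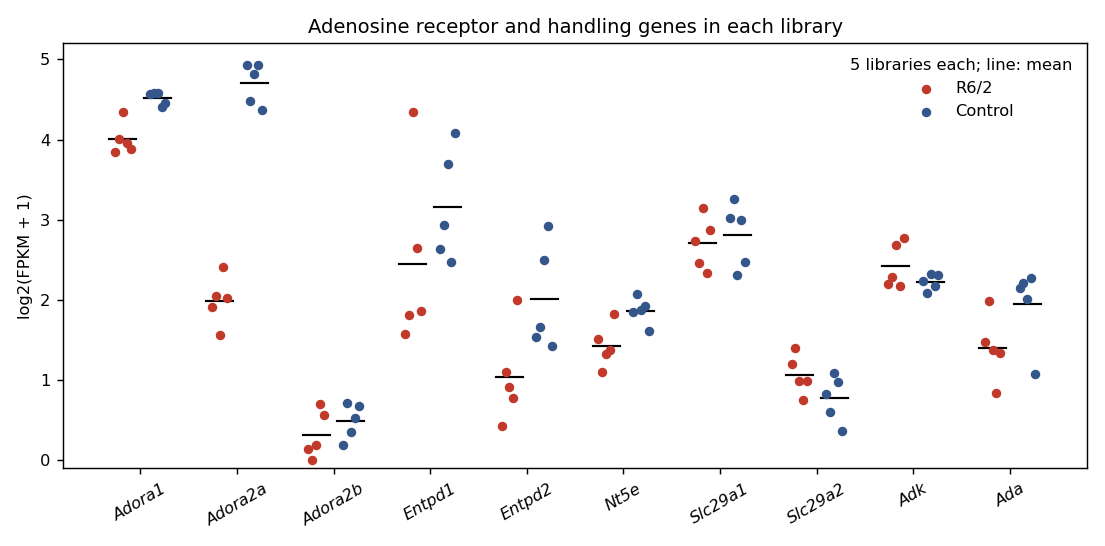
Level of each gene in each library as log2(FPKM + 1), with R6/2 libraries in red to the left, control libraries in blue to the right and a black line at the mean of 5. The R6/2 and control points of Adora2a and Adora1 do not overlap, and those of the other 8 genes do.

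In bulk tissue, fewer cells of a type and less RNA per cell cannot be told apart. Low values of genes with a single annotated transcript fell on steps of whole fragments. The steps imply 5.75 to 11.5 M fragments per library in R6/2 and 5.95 to 8.47 M in control. This is the depth implied by the FPKM values, which scaling between libraries could shift. Spiny projection neuron markers, which define striatum, summed to 269 to 371 FPKM in R6/2 and 1235 to 1596 FPKM in control, with 8 of 8 called lower. Myelinating oligodendrocyte markers summed to 714 to 1096 FPKM in R6/2 and 1538 to 1729 FPKM in control, with 5 of 8 called lower. Of 6 cortical excitatory neuron markers, which would mark tissue from outside the striatum, 5 were tested and 2 called higher, and R6/2 3 had the highest sum. That sum was 53.5 to 97 FPKM in R6/2 and 23.3 to 51.2 FPKM in control, without overlap. Over all genes, 795 were called higher and 1449 lower. After quantile normalization these counts were 1111 and 1277, and after protein-coding genes were rescaled to the same total they were 1522 and 1136.

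Adora2a (ENSMUSG00000020178.5, GRCm38 chromosome 10, 75316877 to 75334784, plus strand) encodes the A2A receptor. It was at 2.76, 3.15, 1.96, 4.31 and 3.06 FPKM in R6/2 1 to 5, against 29.4, 21.4, 27.1, 29.4 and 19.7 FPKM in Control 1 to 5. The highest R6/2 library thus lay far under the lowest control library, and R6/2 3 was the lowest of all. If all reads came from its longest annotated transcript, these levels stand for about 39 to 78 fragments in an R6/2 library and 281 to 587 in a control library. The log2 change was -2.71 (SE 0.17, 95% interval -3.09 to -2.33, limma adjusted p = 1.5e-05), and the R6/2 mean was 12% of the control mean. Among the 1449 genes called lower it ranked 18 by log2 change. The call held in every alternative tried, with limma adjusted p between 7.83e-06 and 0.011. With a pseudocount of 5 FPKM the log2 change was -1.91, and with 0.1 FPKM it was -3.04.

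Adora1 (ENSMUSG00000042429.8, chromosome 1, 134199223 to 134235431, minus strand) encodes the A1 receptor. It was at 13.4, 15.1, 19.3, 14.6 and 13.8 FPKM in R6/2 1 to 5, against 22.8, 23.0, 23.0, 20.2 and 20.9 FPKM in Control 1 to 5. The groups did not overlap, though R6/2 3 came within 1 FPKM of Control 4. The log2 change was -0.51 (SE 0.10, 95% interval -0.73 to -0.29; adjusted p = 0.00838 in limma). The R6/2 mean was 69.4% of the control mean. With the mean level of 4 cortical neuron markers in the model the log2 change was -0.60 with an SE of 0.15 and was not called (limma adjusted p = 0.0685, the highest over the alternatives, which began at 0.000905). Exons of Mybph lie over its own on the other strand, and Mybph was at most 0.355 FPKM in R6/2 and 0.605 FPKM in control.

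Sequence upstream of Adora1, the member of the called pair that is in the RefSeq promoter table (build GRCm38.p6), is shown because its annotated start sites lie in windows of different motif content. Both windows are on the minus strand of chromosome 1 and run 5′ to 3′ from 250 bases before to 50 bases after an annotated start, at chr1:134235408-134235707 for the first and chr1:134234807-134235106 for the second. Capitals mark matches to a motif on either strand:
Adora1 start 1: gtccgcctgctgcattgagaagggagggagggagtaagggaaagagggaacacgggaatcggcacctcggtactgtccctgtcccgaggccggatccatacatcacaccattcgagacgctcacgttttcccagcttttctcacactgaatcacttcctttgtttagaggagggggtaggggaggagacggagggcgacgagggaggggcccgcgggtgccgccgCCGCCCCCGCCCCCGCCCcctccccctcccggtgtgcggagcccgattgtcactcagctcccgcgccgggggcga
Adora1 start 2: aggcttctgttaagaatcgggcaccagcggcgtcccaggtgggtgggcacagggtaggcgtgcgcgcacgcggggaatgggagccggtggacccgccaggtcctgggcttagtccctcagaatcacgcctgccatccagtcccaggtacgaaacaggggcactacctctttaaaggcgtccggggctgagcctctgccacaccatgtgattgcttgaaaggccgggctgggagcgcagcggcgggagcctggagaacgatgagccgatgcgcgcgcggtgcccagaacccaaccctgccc
The motifs searched were the cyclic AMP response element (TGACGTCA), its half-site (TGACG), Egr sites (GCGTGGGCG or GCGGGGGCG), GC boxes (GGGCGG) and the TATA box (TATAAA). The first window had 2 Egr matches and 3 GC box matches, which overlap each other in 1 run of capitals, and the second had 0 of any motif. Egr sites occur in 3.47%, GC boxes in 35.6%, response elements in 1.79%, half-sites in 20.8% and TATA boxes in 13.6% of the 32817 windows of this length in the table. A match is a description of the letters and was not tested for binding.

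The low-affinity receptor gene Adora2b (chromosome 11, 62248984 to 62266453) was barely detected. It was at 0.103, 0.143, 0.628 and 0.483 FPKM in R6/2 1, 3, 4 and 5 and listed at 0 in R6/2 2, against 0.143, 0.639, 0.281, 0.446 and 0.602 FPKM in Control 1 to 5. It has 1 annotated transcript, so these values can be read as 0.0 to 7.8 fragments in an R6/2 library and 2.0 to 7.9 in a control library. The groups overlapped over nearly their whole range (difference of mean log2 -0.17, exact permutation test, two-sided, p = 0.325). At this depth no difference was detectable. Adora3, the A3 receptor gene, was at most 0.381 FPKM in R6/2 and 0.454 FPKM in control and was not tested; its exons overlap those of Tmigd3 on the same strand.

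The mix of receptor transcripts differed between the groups. The FPKM of Adora1, Adora2a, Adora2b and Adora3 together summed to 18.7 ± 2.06 in R6/2 and 48.1 ± 4.50 in control (SD, n = 5 each). Adora2a made up 16.9, 17.1, 9.10, 21.7 and 17.6% of that sum in R6/2 1 to 5, against 56.0, 47.3, 53.3, 58.7 and 47.4% in Control 1 to 5. Adora1 was the larger component in every R6/2 library, whereas Adora2a was the larger in 3 of 5 control libraries. Within a library, log2 Adora2a minus log2 Adora1 averaged -2.02 ± 0.46 in R6/2 and 0.18 ± 0.27 in control (SD, n = 5 each), a difference of -2.20. That difference had an exact permutation p of 0.00794, two-sided, the smallest that the splits into 5 and 5 allow (0.0119 with Benjamini-Hochberg adjustment over the 3 within-library differences computed). It was lower in 5 of 5 R6/2 libraries than in any control library. With log2 changes of -2.71 for Adora2a and -0.51 for Adora1, the difference mostly restates the larger fall of Adora2a.

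**Figure D2:**
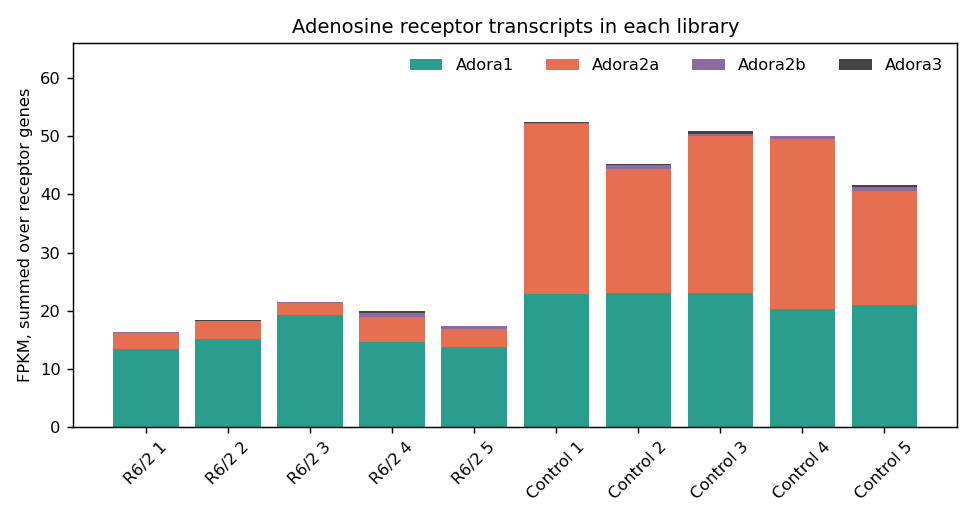
FPKM of the adenosine receptor genes stacked for each library, with R6/2 on the left and control on the right. The total lies between 16.4 and 21.6 FPKM in R6/2 and between 41.6 and 52.5 FPKM in control, and most of the gap is in Adora2a.

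Adora2a was set against Drd2, the D2 receptor gene of the same indirect-pathway neurons. Drd2 averaged 29.2 ± 4.19 FPKM in R6/2 and 164 ± 16.4 FPKM in control (SD, n = 5 each), so its R6/2 mean was 17.8% of the control mean, beside 12% for Adora2a. Log2 Adora2a minus log2 Drd2 averaged -2.91 ± 0.22 in R6/2 and -2.66 ± 0.27 in control, a difference of -0.26 that did not pass (exact permutation test, two-sided, p = 0.175, and 0.175 after adjustment over the 3 differences). This comparison turned on the pseudocount: the difference was -0.59 without one and -0.55 with 0.1 FPKM (p = 0.0238 for each), and 0.40 with 5 FPKM (p = 0.0159, exact permutation tests, n = 5 each). The 6 indirect-pathway markers in the table, Drd2 among them, summed to 86 to 137 FPKM in R6/2 and 841 to 1022 FPKM in control, and 4 of 6 were called lower. Most of that sum was Penk, at 71.5 ± 15.6 FPKM in R6/2 and 757 ± 61.7 FPKM in control (SD, n = 5 each). Ptprm and Sp9 were not called (log2 changes -0.20 and -0.33, limma adjusted p = 0.179 and 0.16). The lowest marker sum among the R6/2 libraries was that of R6/2 3, which also had the lowest Adora2a value. The 8 direct-pathway markers, of neurons not known for A2A, summed to 91.6 to 133 FPKM in R6/2 and 202 to 305 FPKM in control, with 6 of 8 called lower. The part of these marker levels in the values of Adora2a was not tested.

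The genes whose profiles were most like that of Adora2a included 3 from the marker lists of spiny neurons, Ppp1r1b, Pde10a and Drd2. Likeness was the root mean square difference between log2(FPKM + 1) profiles over the 10 libraries, each gene centred on its control mean, over 11410 protein-coding genes. The nearest were Ppp1r1b (0.181), which encodes the phosphoprotein DARPP-32, the cyclic nucleotide phosphodiesterase gene Pde10a (0.211), the kinase gene Hipk4 (0.243), Drd2 (0.287) and the calcium release channel gene Ryr1 (0.289). Because profiles were centred on control means, genes chosen by this likeness have log2 changes near that of the member by construction. For Adora2a these changes lay between -2.93 for Ryr1 and -2.46 for Drd2, around its own -2.71. Among the 5 nearest to Adora1 were the kinesin gene Kif1c (0.102), the cytokine signalling inhibitor gene Socs2 (0.103), Prag1 (0.105) and the transcription factor gene Hivep2 (0.108). The log2 changes of these 4 lay between -0.52 for Socs2 and -0.43 for Hivep2. Prag1 passed only barely (log2 change -0.43, limma adjusted p = 0.0498), and leaving out any library other than R6/2 3 or Control 5 ended its call. Exons of Ryr1 and Hivep2 overlap genes on the other strand.

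**Figure D3:**
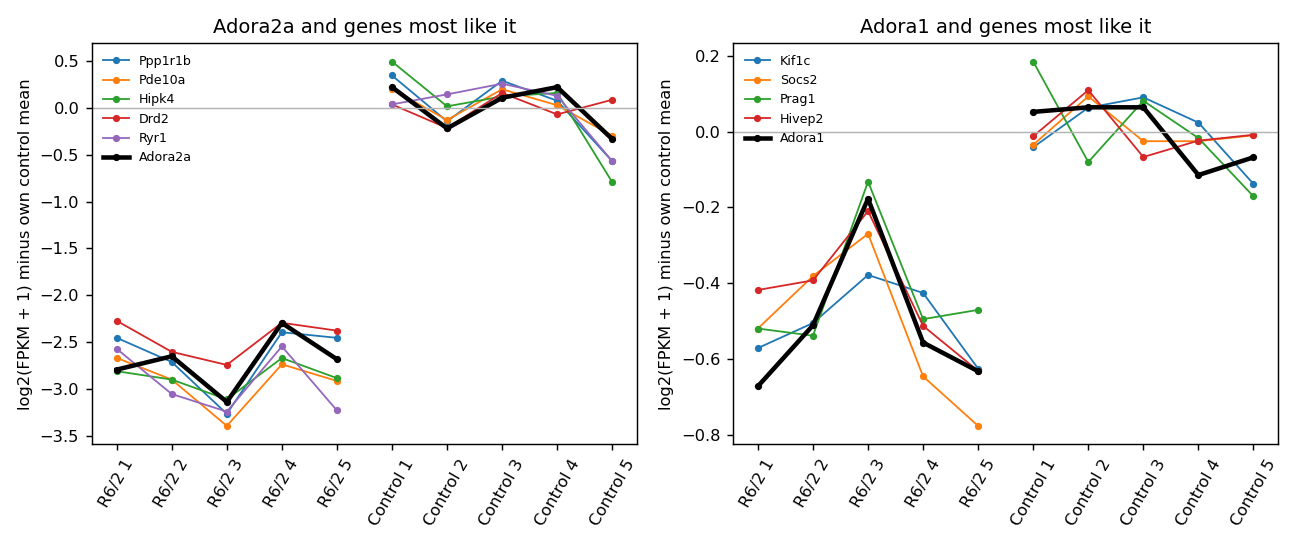
Log2(FPKM + 1) minus each gene's own control mean in each library, R6/2 on the left and control on the right, for Adora2a and the 5 genes most like it (left panel) and for Adora1 and 4 of the 5 most like it (right panel, with a narrower axis); lines only join the points of a gene. R6/2 3 is the lowest R6/2 library for Adora2a and the highest for Adora1.

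Of the enzymes that make adenosine outside the cell, none passed. Nt5e (chromosome 9, 88327197 to 88372092), which encodes the AMP-cutting ectoenzyme CD73, was at 1.85, 1.14, 1.51, 1.59 and 2.53 FPKM in R6/2 1 to 5, against 2.59, 3.23, 2.67, 2.79 and 2.06 FPKM in Control 1 to 5. All but R6/2 5 lay under every control library. The log2 change was -0.44 (95% interval -0.78 to -0.10, limma adjusted p = 0.0864). Without R6/2 5 it was -0.54 and passed (limma adjusted p = 0.0286). Nt5e passed in 2 of 20 alternatives, and the limma adjusted p reached 0.554 in the others.

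Entpd1 (chromosome 19, 40612366 to 40741602) encodes the NTPDase CD39, known in brain from microglia and vessels. It was at 1.98, 2.52, 19.3, 5.26 and 2.64 FPKM in R6/2 1 to 5, against 5.21, 6.63, 12, 4.57 and 15.9 FPKM in Control 1 to 5. Both groups spanned several-fold and R6/2 3 was above every control library. The log2 change was -0.72 with a 95% interval of -1.93 to 0.49 (limma adjusted p = 0.446), and -1.19 without R6/2 3 (limma adjusted p = 0.0816). The summed microglia markers were at 59.8 to 65.7 FPKM in R6/2 and 67.2 to 83.2 FPKM in control, with 1 of 8 called lower. The summed endothelial and mural markers were at 75.1 to 84.8 FPKM in R6/2 and 80.1 to 107 FPKM in control, with 0 of 9 called by limma and 0 at an unadjusted p under 0.05. The part of either in the values of Entpd1 was not tested.

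Entpd2 (chromosome 2, 25395874 to 25401321) encodes NTPDase2, known in brain from astrocyte-like cells. It was at 0.343, 1.14, 0.889, 0.718 and 2.99 FPKM in R6/2 1 to 5, against 1.90, 2.17, 4.63, 6.59 and 1.69 FPKM in Control 1 to 5. R6/2 5 lay inside the control range and the other R6/2 libraries below it. The log2 change was -0.97 (95% interval -1.79 to -0.14; adjusted p = 0.119 in limma), from values that stand for about 6.8 to 39 fragments in an R6/2 library and 17.4 to 77 in a control library. Exons of Npdc1 cover part of it on the same strand, a gene at 27.1 to 45.2 FPKM in R6/2 and 20.9 to 32.1 FPKM in control, so reads may be split between them. The 9 astrocyte markers summed to 332 to 430 FPKM in R6/2 and 553 to 629 FPKM in control, with 3 of 9 called lower, and their part in the values of Entpd2 was not tested.

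The transporters did not pass either. Slc29a1 (chromosome 17, 45585200 to 45599606), which encodes the equilibrative nucleoside transporter ENT1, was at 5.66, 4.52, 7.86, 4.07 and 6.32 FPKM in R6/2 1 to 5, against 7.10, 8.56, 3.96, 6.97 and 4.54 FPKM in Control 1 to 5. The groups covered almost the same range, with a log2 change of -0.10 (95% interval -0.58 to 0.38, limma adjusted p = 0.817) that was 0.00 after protein-coding genes were rescaled. Slc29a2 (chromosome 19, 5023860 to 5031972), which encodes ENT2, was under 1 FPKM on average over the libraries. It was at 1.31, 1.65, 0.981, 0.681 and 0.990 FPKM in R6/2 1 to 5, against 0.773, 0.520, 1.12, 0.969 and 0.290 FPKM in Control 1 to 5. Its R6/2 values leaned upward with overlap (difference of mean log2 0.30, exact permutation test, two-sided, p = 0.119).

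The enzymes that remove adenosine pointed in opposite directions, and neither passed. Adk (chromosome 14, 21052574 to 21448569), the adenosine kinase gene, which in adult brain is known mainly from astrocytes, was at 3.60, 3.89, 5.42, 3.51 and 5.86 FPKM in R6/2 1 to 5, against 3.71, 3.24, 4.02, 3.53 and 3.97 FPKM in Control 1 to 5. R6/2 3 and R6/2 5 were above every control library and the other 3 were within the control range. The log2 change was 0.20 (95% interval -0.11 to 0.50, limma adjusted p = 0.397), the only one of the 8 above 0. Beside it stands the lower summed level of the astrocyte markers given above, most of which was Slc1a2. Gfap, raised in reactive astrocytes, averaged 5.74 ± 1.12 FPKM in R6/2 and 5.25 ± 0.983 FPKM in control (log2 change 0.11, limma adjusted p = 0.67). Ada (chromosome 2, 163726584 to 163750239), the adenosine deaminase gene, was at 1.79, 2.95, 1.59, 0.795 and 1.53 FPKM in R6/2 1 to 5, against 3.44, 3.65, 3.05, 3.84 and 1.11 FPKM in Control 1 to 5. The groups overlapped because of Control 5: the log2 change was -0.54 (95% interval -1.15 to 0.06, limma adjusted p = 0.235), and -0.76 without that library (limma adjusted p = 0.0405). This was the only 1 of 20 alternatives in which Ada passed, and the limma adjusted p reached 0.543 in the others.

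**Figure D4:**
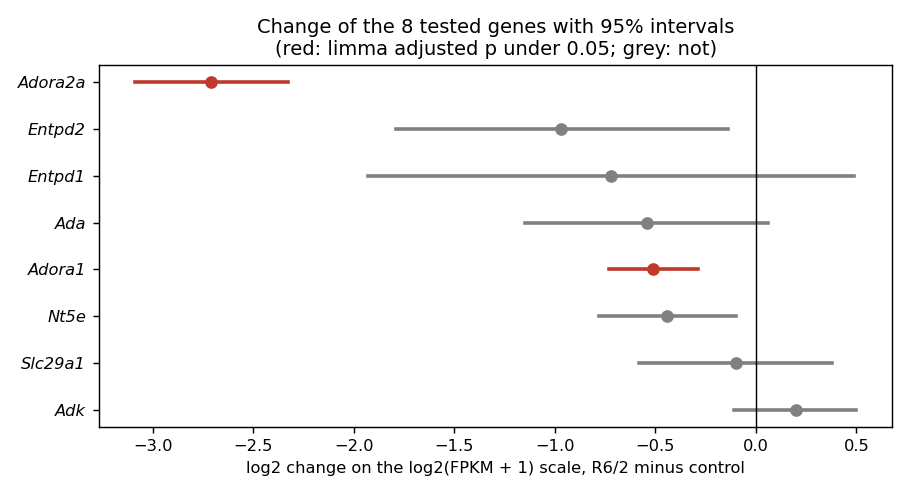
Log2 change, R6/2 minus control, of the 8 tested genes with 95% intervals from the limma fit, red where the adjusted p was under 0.05. Only the intervals of Adora2a and Adora1 belong to called genes; Entpd2 and Nt5e have intervals below 0 but did not pass adjustment over all genes.

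Relative to the kinase, the receptor was far lower. Log2 Adk minus log2 Adora2a was 0.29, 0.24, 1.12, -0.24 and 0.76 in R6/2 1 to 5, against -2.69, -2.40, -2.49, -2.74 and -2.06 in Control 1 to 5. The groups did not overlap, with means of 0.43 ± 0.52 in R6/2 and -2.48 ± 0.27 in control (SD, n = 5 each, difference 2.91, exact permutation test, two-sided, p = 0.00794, 0.0119 after adjustment over the 3 differences). With log2 changes of -2.71 for Adora2a and 0.20 for Adk, which was not called, this difference mostly restates the fall of Adora2a. In levels per length, the order of the 10 genes in R6/2 was Adora1, Entpd1, Slc29a1, Adk, Adora2a, Ada, Nt5e, Entpd2, Slc29a2 and Adora2b, and each overlapped its neighbour in range except Slc29a2 and Adora2b. In control the order was Adora2a, Adora1, Entpd1, Slc29a1, Adk, Entpd2, Ada, Nt5e, Slc29a2 and Adora2b. There the ranges of neighbours did not overlap between Adora1 and Entpd1 or between Nt5e and Slc29a2. Adora2a thus held rank 5 in R6/2 and rank 1 in control, where its range overlapped that of Adora1.

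The wider purine pathway was listed as 63 further genes, of which 62 were in the table by symbol and 38 were tested. Of these, 1 was called higher and 3 lower, with a median log2 change of -0.08, beside the 14.1% called over all genes. Ahcyl1, related to the hydrolase that releases adenosine from S-adenosylhomocysteine but known for binding the inositol trisphosphate receptor, fell to 85.8 ± 9.17 FPKM in R6/2, against 132 ± 10.8 FPKM in control (SD, n = 5 each, log2 change -0.62, limma adjusted p = 0.00186). The ADP receptor genes P2ry12 and P2ry13, both known from microglia, fell by 0.52 and 0.49 in log2 (adjusted p = 0.00454 and 0.0452, limma). For P2ry12 this was 10.3 ± 1.41 FPKM in R6/2 and 15.1 ± 0.908 FPKM in control, and among the 8 tested microglia markers it was the only one called. Med12l exons cover part of it on the other strand. Panx1, an ATP release channel gene, rose to 9.07 ± 1.59 FPKM in R6/2, against 5.45 ± 1.52 FPKM in control (log2 change 0.66, limma adjusted p = 0.0292).

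The calls of Panx1 and P2ry13 were near the threshold. Leaving out a library ended the call of Panx1 for all but R6/2 4 and Control 4, and that of P2ry13 for all but Control 2. With the cortical markers in the model none of the 4 passed, though their directions held and their standard errors were larger. Then the log2 change was -0.59 for Ahcyl1 (SE 0.14, limma adjusted p = 0.0604) and -0.42 for P2ry12 (SE 0.13, limma adjusted p = 0.145). It was -0.49 for P2ry13 (SE 0.22, limma adjusted p = 0.315) and 0.52 for Panx1 (SE 0.25, limma adjusted p = 0.367). Without the 4 libraries furthest apart in cortical signal the log2 changes were -0.61, -0.44, -0.50 and 0.58 in the same order of genes, and none passed (limma adjusted p between 0.105 and 0.361). None of 5 tested genes for nucleotide breakdown outside the cell, 5 cytosolic nucleotidase genes and 2 further nucleoside carrier genes was called by limma. At an unadjusted p under 0.05 these groups had 0, 1 and 0 genes. Of 16 tested genes for adenosine and AMP enzymes inside the cell, 1 was called, which was Ahcyl1. At an unadjusted limma p under 0.05, 3 of these 16 were higher and 5 lower, beside 12% higher and 15.5% lower over all tested genes.

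**Figure D5:**
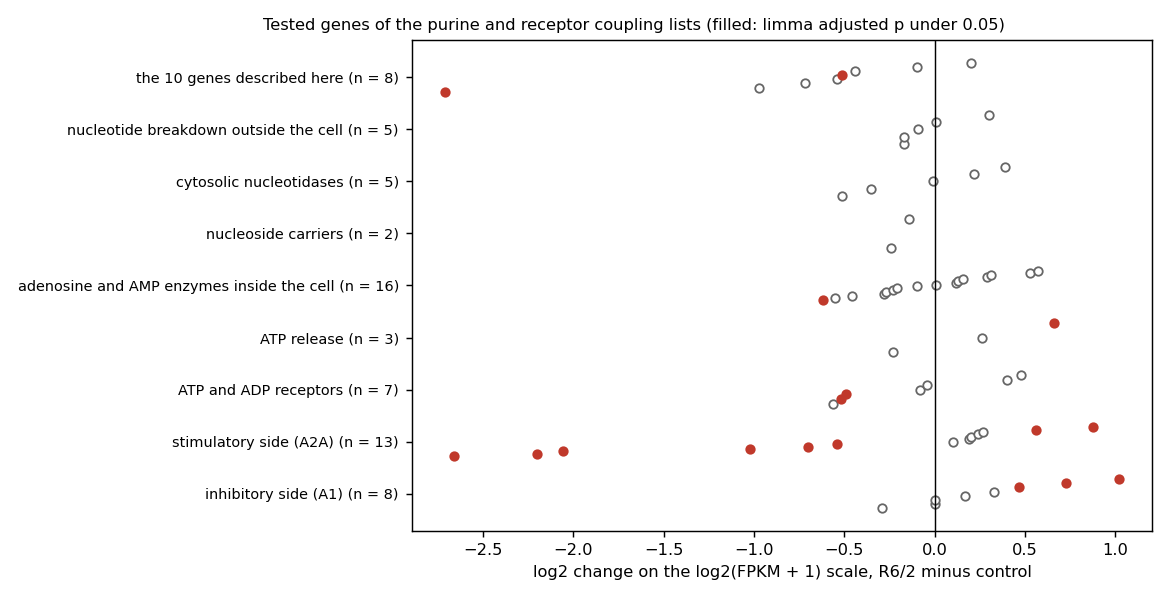
Log2 change, R6/2 minus control, of each tested gene in the 10-gene set, in the groups of the purine pathway list and on both sides of the receptor coupling list, filled red where the limma adjusted p was under 0.05. The purine groups sit between -0.62 and 0.66, whereas the stimulatory coupling genes reach -2.66 and the inhibitory ones 1.02.

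Genes that carry the receptor signal onward changed in both directions. On the stimulatory side used by A2A, 6 of 13 genes were called lower and 2 higher (median 0.10), beside 9.11% lower and 5.00% higher over all tested genes. Adcy5, the main striatal adenylyl cyclase gene, was at 22.5, 17.8, 12.5, 19.2 and 19.6 FPKM in R6/2 1 to 5, against 97.4, 87.0, 99.7, 84.7 and 67.6 FPKM in Control 1 to 5 (log2 change -2.20, limma adjusted p = 3.06e-05). The groups were far apart. Gng7, the gamma subunit gene that pairs with Golf, fell by 2.06 and Gnal, which encodes the Golf alpha subunit, by 1.02 in log2 (adjusted p = 7.4e-05 and 0.000552, limma). The exons of Gnal overlap those of Mppe1 on the other strand, and those of Ppp1r1b, which fell by 2.66 (limma adjusted p = 5.66e-05), overlap an antisense gene. Gnas, the alpha subunit gene of the general stimulatory G protein, rose to 280 ± 30.5 FPKM in R6/2, against 153 ± 27.2 FPKM in control (SD, n = 5 each, log2 change 0.88, limma adjusted p = 0.00173); it was named after its values were seen, and antisense genes overlap it.

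On the inhibitory side used by A1, 3 of 8 genes were called higher and 0 lower by limma (median 0.25), beside 5.00% higher and 9.11% lower over all tested genes. At an unadjusted p under 0.05 there were 4 higher and 1 lower, beside 12% and 15.5% over all tested genes. The 1 lower gene was Gnao1, the most abundant of the 8 and named after its values were seen. It averaged 1827 ± 148 FPKM in R6/2 and 2241 ± 258 FPKM in control (SD, n = 5 each). Its groups did not overlap, but it was not called (log2 change -0.29, limma adjusted p = 0.0749). The 8 genes summed to 1758 to 2162 FPKM in R6/2 and 2152 to 2828 FPKM in control. The G protein-gated potassium channel gene Kcnj3 averaged 17.9 ± 3.62 FPKM in R6/2 and 8.40 ± 2.12 FPKM in control (SD, n = 5 each, log2 change 1.02, limma adjusted p = 0.00512). Its partner Kcnj6 averaged 5.75 ± 0.653 FPKM in R6/2 and 3.18 ± 1.07 FPKM in control (log2 change 0.73, limma adjusted p = 0.0243), and the inhibitory alpha subunit gene Gnai1 averaged 91.5 ± 10.3 FPKM in R6/2 and 66.2 ± 11.8 FPKM in control (log2 change 0.47, limma adjusted p = 0.0316). With the cortical markers in the model the log2 change of Kcnj3 was 0.45 (limma adjusted p = 0.0318), and those of Kcnj6 and Gnai1 were 0.27 and 0.23 and were not called (limma adjusted p = 0.53 and 0.534). Leaving out 1 library ended the call of Kcnj6 for R6/2 1, 2, 3 and 4 and Control 1 and 3, with log2 changes of 0.62 to 0.74, and that of Gnai1 for R6/2 2 and 3 and Control 1, 2, 3 and 4, with 0.42 to 0.46. The summed cortical markers were also higher in R6/2 without overlap, so they varied with the group. Their part in the values of these genes was not tested separately from the group. Kcnj3 and Kcnj6 have exons that overlap a gene on the other strand.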

How the data were processed

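The authors deposited 1 table of FPKM values with a column per library, made with STAR 2.4.0, Cufflinks and Cuffdiff on mouse build GRCm38, per the submitters' processing notes; what each did, which annotation it used, and how strand and library scaling were handled are not stated in the sources read. Per the labels' protocols, RNA was amplified with NuGEN Ovation RNA-Seq v2 and made into Nextera libraries. Symbols and positions came from GENCODE M21 by stable Ensembl ID (47220 of 47632 rows matched).

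Low FPKM of genes with 1 transcript, times the transcript length less 200 bases, lay near whole numbers of fragments. They were within 0.1 of a whole number for 92.1 to 94.1% of 1276 to 1448 genes per library. This gave the depth that the FPKM values imply, not a count of sequenced fragments. Genes with several transcripts do not give whole numbers, so no count test was run. An exact 0 can be a failed estimate: 13 of 77 ribosomal protein genes were listed at 0 in at least 1 library.

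Genes averaging 1 FPKM or more entered limma 3.58.1 (R 4.3.3) on log2(FPKM + 1), with a mean-variance trend, two-sided, and Benjamini-Hochberg adjustment over 15905 genes (8 residual degrees of freedom). Within-library differences and genes under 1 FPKM had exact permutation tests over every division of the libraries into 5 and 5. The members and lists were chosen with earlier results of these data known. Named were the members, Drd2, Gfap and Htt, at most the 4 called genes of smallest p in each group of the purine and coupling lists, and the 5 genes most like each called member, of which 1 is not reported here. Alternatives covered pseudocounts, filters, scalings, weights, trend, the replicate number as a block, a covariate (the mean of 4 cortical markers) and leaving out libraries.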

Additional observations from a re-analysis of the deposited data

Results flagged for a closer look

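Of 96 groups of 5 values examined, 8 had a library set apart from the rest by Dixon's criterion, where chance gives about 1 in 20. Among the adenosine genes, R6/2 3 was high for Adora1 (19.3 FPKM, the other R6/2 libraries 13.4 to 15.1 FPKM) and for Entpd1 (19.3 FPKM, the others 1.98 to 5.26 FPKM). Control 5 was low for Ada (1.11 FPKM, the other controls 3.05 to 3.84 FPKM). The Dixon ratios of Adora1 (0.712) and Ada (0.711) barely passed the critical value of 0.71, and that of Entpd1 was 0.811. R6/2 1 was high for P2ry12 (12.8 FPKM, the others 9.36 to 9.96 FPKM) and low for the summed endothelial and mural markers (75.1 FPKM, the others 84.1 to 84.8 FPKM). Control 5 was high for Gnai1 (86.7 FPKM, the others 56.6 to 64.4 FPKM), and Control 2 for Socs2 (9.02 FPKM, the others 8.17 to 8.33 FPKM). R6/2 3 was high for Prag1 (2.01 FPKM, the others 1.27 to 1.38 FPKM).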

How the results depend on the processing

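The call of Adora2a held in 21 of 21 alternatives and that of Adora1 in 20 of 21; Adora1 had a log2 change of -0.60 with the cortical markers in the model, which left 1 of the 10 genes called lower. Leaving out a library gave log2 changes of -2.82 to -2.61 for Adora2a and -0.59 to -0.47 for Adora1. For Nt5e the change was -0.48 with array weights, where it passed, and -0.54 to -0.36 without a library; for Ada it was -0.76 to -0.40 without a library; for Slc29a1 it was 0.00 after rescaling and -0.22 to 0.01 without a library, 0.01 without Control 2. Of all tested genes, 1522 were higher after rescaling of protein-coding genes, 370 were higher with the replicate block, 112 were higher and 506 lower with the cortical markers in the model, and 106 were higher and 457 lower without the 4 libraries furthest apart in cortical signal, an alternative chosen after seeing the data; without a library 576 to 890 were higher and 1193 to 1518 lower. In the purine list the called higher genes were 2 with a minimum mean of 5 FPKM or array weights, 3 after either scaling, 0 without the filter, with the replicate block, with the cortical markers or without the 4 libraries, and 0 to 2 without a library. The called lower genes were 0 with the cortical markers or without the 4 libraries and 2 to 5 without a library. In the coupling list the called higher genes were 8 after either scaling, 3 with the replicate block or without the 4 libraries, 2 with the cortical markers and 3 to 6 without a library. Adora2a minus Drd2 was -0.59 without a pseudocount (added after seeing the data), -0.55 with 0.1 FPKM and 0.40 with 5 FPKM. From 0.1 to 5 FPKM the log2 change of Adora2a, the gene of lower level, moved from -3.04 to -1.91. That of Drd2 moved only from -2.49 to -2.31. Nothing beyond the pseudocount was tested.

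Libraries with the same replicate number did not deviate together (correlations of deviations -0.05 to 0.05 over 5 pairs), and 1 of 5 R6/2 libraries was closest to the control of its own number. No pairing by number was thus seen, though 5 pairs are too few to exclude it. With the replicate block, 370 genes were higher and 975 lower, and both Adora2a and Adora1 were called. Paired sign-flip tests of Adora2a minus Adora1 (-2.20) and Adk minus Adora2a (2.91) gave exact p = 0.0625, the smallest that 5 pairs allow.

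Depth limits Adora2b, Adora3, Slc29a2, Entpd2 and Ada most, whose values rest on few fragments per library.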
